A study of Mus musculus with 3 samples.

Results

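The 10 core cardiac transcription factors and family partners Gata4, Gata6, Mef2a, Mef2c, Mef2d, Tbx5, Tbx20, Nkx2-5, Hand2 and Myocd were chosen by gene symbol among the 54532 genes of the deposited tables, where each symbol stood once. GATA factors (Gata4, Gata6), T-box factors (Tbx5, Tbx20), the homeobox factor Nkx2-5, the basic helix-loop-helix factor Hand2 and the MADS-box factors of the MEF2 family bind one another's regulatory regions in the developing heart and switch on sarcomere and ion channel genes together. Myocardin (Myocd) binds no DNA itself and works as a coactivator of serum response factor on cardiac and smooth muscle genes. Forced expression of such factors is the basis of direct reprogramming of fibroblasts into induced cardiomyocytes (iCMs).

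RNA-seq was performed on 3 libraries, 1 per condition. All cells came from adult Myh6-mCherry mice, in which the Myh6 promoter drives the mCherry reporter, operated at an age of 8 weeks to induce myocardial infarction. MICFs, the cardiac fibroblasts taken from the infarcted tissue 5 days after surgery, were cultured for 4 weeks without virus and were not sorted by the reporter. GMTMS-iCMs received doxycycline-inducible lentiviruses for Gata4, Mef2c, Tbx5, Myocd and Sall4, and the cocktail named GMTMM has Mesp1 in the place of Sall4. Both transduced cultures were kept with 1 μg/ml doxycycline and sorted for mCherry after 4 weeks, and 5 sorted samples were combined into each library. It is not stated whether MICFs received doxycycline. Sorting on the Myh6 promoter, the virus and the cocktail therefore cannot be told apart in any comparison with MICFs. Of the 10 factors, 4 were delivered in both cocktails (Gata4, Mef2c, Tbx5 and Myocd) and 6 were in neither. The library totals were 10624118 to 11904484 counts. MICFs gave 0 counts of Sall4, GMTMS-iCMs 1190 and the library labelled GMTMM 1060, and Mesp1 was at 0 in each. These values go against the label of the third library, which is called the library labelled GMTMM throughout. The Y-linked gene Ddx3y had 0, 880 and 1068 counts in the same order, so MICFs also differed from both transduced libraries in Y-linked transcripts, whose part in the results was not tested.

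With a single library per condition, no p-value can be computed and no difference has a replicate check. Levels are given as read counts and as the deposited FPKM, which are per gene length. Ratios between libraries were taken on FPKM, and their 95% intervals, computed from the counts after Clopper and Pearson, cover counting error only. Differences are on the scale log2 (quantile-normalized FPKM + 1), and a gene is called higher or lower when its difference is over 1. That scale understates changes of genes with low FPKM, most of all under about 1 FPKM but also at a few FPKM. Hand2, for example, was 3.90-fold lower in GMTMS-iCMs than in MICFs, at 1.14 against 4.46 FPKM, with a difference of only -1.27. The size of the factor that scales a library bears on small changes. The same counts gave a GMTMS/MICF ratio for Gata4 of 1.52 by library totals (CPM) and 2.10 by the deposited FPKM. In these bulk libraries, fewer cells of a type and less RNA per cell cannot be told apart.

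Between GMTMS-iCMs and MICFs, Tbx5 and Myocd were higher by over 1 and Tbx20 and Hand2 were lower by over 1. Among all 14415 genes with a mean of at least 10 counts, 9.25% were higher and 9.19% were lower by over 1 in the same comparison. Of the 10 factors, 9 passed that minimum and Nkx2-5 did not. Tbx5 and Myocd passed it through the transduced libraries, where they are high, and had to differ. Between the library labelled GMTMM and MICFs, Gata4, Gata6, Tbx5 and Myocd were higher and no factor was lower, against 6.67% and 3.57% of all genes. Between GMTMS-iCMs and the library labelled GMTMM, Gata6, Tbx20 and Hand2 were lower and no factor was higher, against 9.63% and 6.22% of all genes. The median difference of the 9 factors was 0.37 for GMTMS-iCMs against MICFs (all genes -0.07). It was 0.30 for the library labelled GMTMM against MICFs (all genes -0.08) and 0.06 between the transduced libraries (all genes 0.06). The first 2 of these comparisons share the MICF library. These medians pool factors that went apart. For the 4 delivered factors they were 2.07, 1.75 and 0.55 in the same order, and for the 5 others tested -0.37, -0.10 and -1.17. Tbx5 and Myocd, which had to differ from MICFs, enter the first 2 values of the delivered factors. With a ratio of FPKM over 2 and an interval that excluded 1 as the rule, 3 factors were higher and 2 lower in GMTMS-iCMs than in MICFs, against 14.9% and 18.2% of all genes. Gata4 is the factor added by this rule. The library labelled GMTMM had 4 higher and 0 lower against MICFs, beside 12.9% and 9.21% of all genes. Between the transduced libraries 1 was higher in GMTMS-iCMs, Myocd, and 3 were lower, against 10.9% and 17.3%.

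**Figure D1:**
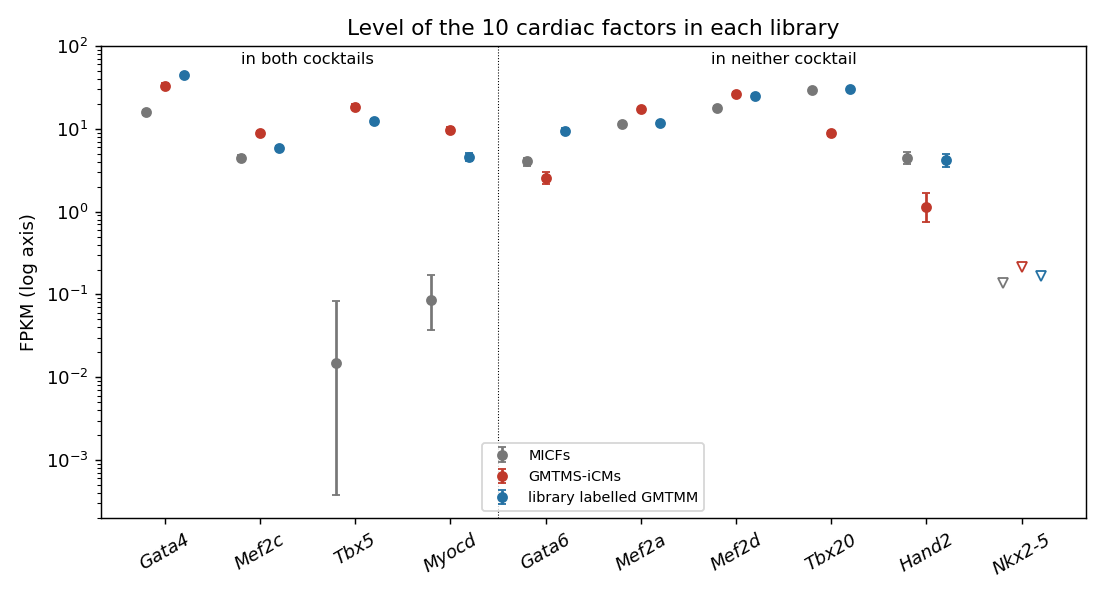
FPKM of the 10 factors (log axis) in the 3 libraries (MICFs, GMTMS-iCMs, labelled GMTMM). Points are single libraries, bars are 95% Poisson intervals on the counts, and open triangles are the level of 3 counts where the count was 0. Tbx5 and Myocd lie below 0.1 FPKM in MICFs and above 4 FPKM in both transduced libraries, and Nkx2-5 was not counted in any library.

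The delivered factors were followed first. Gata4 (ENSMUSG00000021944, GRCm38 chromosome 14 from 63198922 to 63271692), a zinc finger factor that opens cardiac chromatin, had 889 counts in MICFs, against 1207 for GMTMS and 2040 for the library labelled GMTMM. Its FPKM were 15.8, 33.3 and 44.7 in the same order. MICFs without virus thus already carried Gata4 transcripts above 81.2% of the tested genes. The ratio to MICFs was 2.10 (1.93 to 2.30) for GMTMS-iCMs and 2.83 (2.61 to 3.06) for the library labelled GMTMM. On the log2 scale these were differences of 0.73 and 1.18, so only the second was over 1. Gata4 was higher in the library labelled GMTMM than in GMTMS-iCMs, by 1.34-fold (1.25 to 1.44).

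Mef2c (ENSMUSG00000005583, chromosome 13 from 83504034 to 83667080), the MADS-box factor of the second heart field and of skeletal muscle, had 1014 counts in MICFs, against 1295 for GMTMS and 1071 for the library labelled GMTMM. Its FPKM were 4.48, 8.87 and 5.83. Although it was delivered in both cocktails, Mef2c did not differ by over 1 from MICFs in either transduced library (0.86 and 0.30). The ratio was 1.98 (1.82 to 2.15) for GMTMS-iCMs and 1.30 (1.19 to 1.42) for the library labelled GMTMM. By library totals the same ratios were 1.43 and 1.05.

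Tbx5 (ENSMUSG00000018263, chromosome 5 from 119832668 to 119885219), a T-box factor of the first heart field and the atria, had 1 count in MICFs, against 804 for GMTMS and 670 for the library labelled GMTMM. Its FPKM were 0.015, 18.5 and 12.3. MICFs were thus nearly without Tbx5 transcripts, unlike Gata4 and Mef2c. The ratio to MICFs was 1246 (223 to 49259) for GMTMS-iCMs and 825 (148 to 32648) for the library labelled GMTMM. Between the transduced libraries the ratio was 1.51 (1.36 to 1.67), and the difference was 0.53.

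Myocd (ENSMUSG00000020542, chromosome 11 from 65176561 to 65269989) had 8 counts in MICFs, against 574 for GMTMS and 342 for the library labelled GMTMM. Its FPKM were 0.087, 9.62 and 4.56. The ratio to MICFs was 111 (56.0 to 259) for GMTMS-iCMs and 52.7 (26.4 to 123) for the library labelled GMTMM. Of the 4 delivered factors, Myocd showed the largest ratio between the transduced libraries, 2.11 (1.84 to 2.42), with a difference of 0.95.

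The balance of the delivered factors was compared inside each library, because Gata4, Mef2c and Tbx5 act on shared targets. The FPKM of Gata4 was 3.53 times that of Mef2c in MICFs (3.22 to 3.87), 3.75 times in GMTMS-iCMs (3.47 to 4.06) and 7.67 times in the library labelled GMTMM (7.12 to 8.26). Gata4 was 1.80 times Tbx5 in GMTMS-iCMs (1.64 to 1.97) and 3.65 times in the library labelled GMTMM (3.34 to 3.98). Mef2c was 0.479 times Tbx5 in GMTMS-iCMs (0.438 to 0.524) and 0.476 times in the library labelled GMTMM (0.431 to 0.525). The share of Gata4 relative to the other delivered factors was thus higher in the library labelled GMTMM, while the ratio of Mef2c to Tbx5 differed by less than the counting error. Tbx5 was 1.92 times Myocd in GMTMS-iCMs (1.73 to 2.15) and 2.69 times in the library labelled GMTMM (2.36 to 3.08).

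The delivered sequences were coding sequences, and a count per gene cannot tell viral from endogenous transcripts. FPKM divides by a gene length that includes untranslated exons, of which the longest coding sequence in GENCODE M21 makes up 34.0% for Gata4, 9.24% for Mef2c, 33.2% for Tbx5 and 45.9% for Myocd. Levels compared between genes depend on this length. In GMTMS-iCMs the order of FPKM was Gata4, Mef2d, Tbx5, Mef2a, Myocd, Mef2c, Tbx20, Gata6 and Hand2. Of these neighbours, Tbx5 and Mef2a, Myocd and Mef2c, and Mef2c and Tbx20 had overlapping counting intervals. A second scale, per kilobase of coding length, was chosen after seeing the data. It divides all reads of a gene, also those in untranslated exons, by the coding length alone. Genes with long untranslated exons are thereby raised, such as Tbx20 and Mef2a, with coding shares of 11.1% and 10.2%. In MICFs, and for factors in neither cocktail, it is no measure of transcript level. By this scale Mef2a had rank 1, Gata4 rank 3, Mef2c rank 4, Tbx20 rank 5, Tbx5 rank 6 and Myocd rank 7. On that scale Mef2c was above Tbx5 in both transduced libraries, at 96.0 against 55.7 FPKM for GMTMS and 63.1 against 36.9 FPKM for the library labelled GMTMM, which turns the order given by gene length. Gata4 and Mef2c were at 98.0 and 96.0 FPKM per coding length for GMTMS and at 132 and 63.1 for the library labelled GMTMM. Per coding length the lead of Gata4 over Mef2c was thus small in GMTMS-iCMs. The smaller lead follows from the scale, which raises Mef2c more than Gata4 through coding shares of 9.24% and 34.0%. In MICFs, which received no virus, that scale cannot tell which of them was higher. In MICFs the order of FPKM was Tbx20, Mef2d, Gata4, Mef2a, Mef2c, Hand2, Gata6, Myocd and Tbx5, with overlapping intervals for Mef2d and Gata4, for Mef2c, Hand2 and Gata6 as neighbours, and for Myocd and Tbx5. In the library labelled GMTMM it was Gata4, Tbx20, Mef2d, Tbx5, Mef2a, Gata6, Mef2c, Myocd and Hand2, with overlaps for Tbx5 and Mef2a and for Myocd and Hand2. Per coding length Tbx20 had rank 1 in both of these libraries. Mef2a had rank 2 and Gata4 rank 5 in MICFs, whereas in the library labelled GMTMM Gata4 had rank 2 (132 FPKM against 273 for Tbx20), Mef2a rank 3 and Mef2d rank 4. By the limit given above, the ranks per coding length in MICFs and of factors in neither cocktail say nothing about transcript levels.

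**Figure D2:**
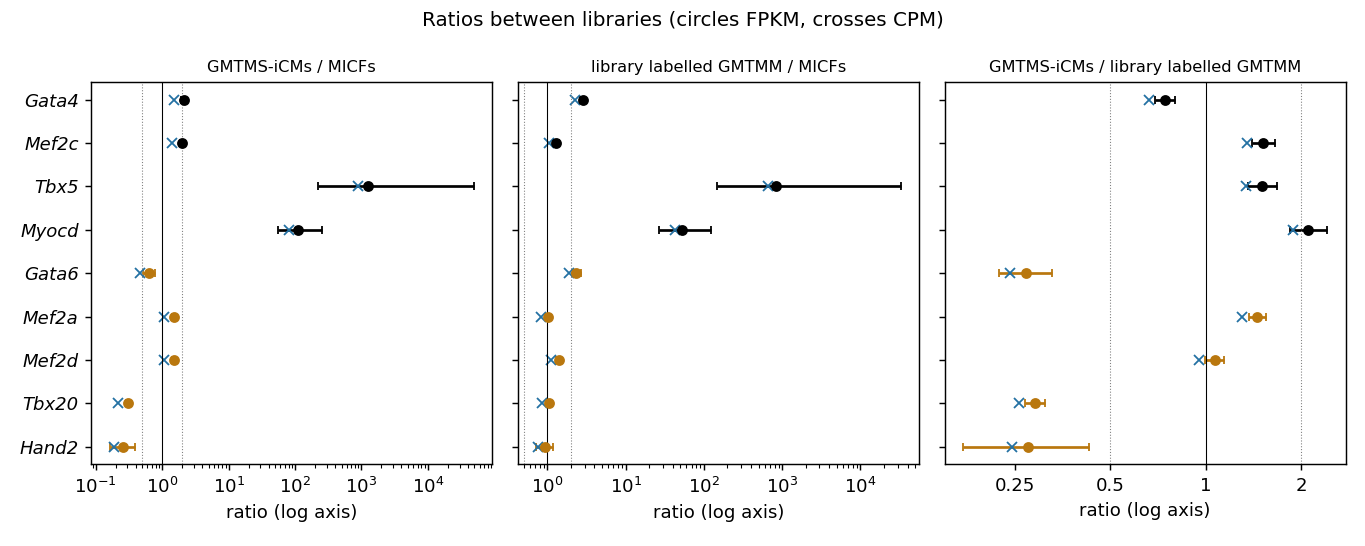
Ratio of FPKM (circles, with 95% counting intervals after Clopper and Pearson) and ratio of CPM by library totals (crosses) between pairs of libraries for 9 factors, on log axes. Delivered factors are black and the others brown, the solid line marks 1 and the dotted lines mark 0.5 and 2. Tbx20 and Hand2 lie left of 0.5 in both comparisons of GMTMS-iCMs, and the crosses lie left of the circles in every comparison.

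The factors in neither cocktail were examined next. In GMTMS-iCMs none of them was above its MICF level by over 1. Tbx20 and Hand2 were lower, and Gata6, Mef2a and Mef2d stayed within 1. All 6 fibroblast and all 5 endothelial markers examined were lower by over 1 in GMTMS-iCMs too, against 9.19% of all genes. The part of these cells in these values was not tested.

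Tbx20 (ENSMUSG00000031965, chromosome 9 from 24718138 to 24774303), a T-box factor that maintains cardiomyocyte and valve programmes, had 5005 counts in MICFs, against 979 for GMTMS and 4251 for the library labelled GMTMM. Its FPKM were 29.0, 8.79 and 30.3. It was the most abundant of the 10 factors in MICFs, and only GMTMS-iCMs were low. Tbx20 was 3.30-fold lower in GMTMS-iCMs than in MICFs (3.08 to 3.54), a difference of -1.88. It was 3.45-fold lower than in the library labelled GMTMM (3.22 to 3.70), a difference of -1.58. In the library labelled GMTMM the ratio to MICFs was 1.05 (1.00 to 1.09) by FPKM and 0.846 by library totals, so its direction depended on the scaling.

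Hand2 (ENSMUSG00000038193, chromosome 8 from 57320983 to 57324633), required for the right ventricle and for the mesenchyme of limb and pharyngeal arches, had 151 counts in MICFs, against 25 for GMTMS and 114 for the library labelled GMTMM. Its FPKM were 4.46, 1.14 and 4.15. Hand2 was 3.90-fold lower in GMTMS-iCMs than in MICFs (2.54 to 6.22), a difference of -1.27, and 3.63-fold lower than in the library labelled GMTMM (2.34 to 5.84). The ratio of the library labelled GMTMM to MICFs was 0.930 (0.723 to 1.19) by FPKM and 0.752 (0.585 to 0.966) by library totals, so whether its interval included 1 depended on the scaling. Of the exon bases of Hand2, 19.6% lie in exons of AV026068, which had 134, 19 and 54 counts in the same order. Without a stated strand setting, reads in that overlap cannot be assigned, so the counts of Hand2 are uncertain.

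Nkx2-5 (ENSMUSG00000015579, chromosome 17 from 26838664 to 26841565), the homeobox factor that marks cardiac progenitors and cardiomyocytes, had 0 counts in all 3 libraries. Taking 3 counts as the upper limit for a count of 0, its level was below 0.253, 0.282 and 0.252 CPM. Nkx2-5 was thus not detectable at this depth in libraries where Myh6, the cardiac myosin whose promoter drove the sorting reporter, had 14098 and 5149 counts. Its homologues Nkx2-3 and Nkx2-6 also had 0 counts in all 3 libraries.

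The promoters of these 3 factors are shown because they are the factors outside the cocktails that were lower in GMTMS-iCMs or were not counted. They run from 250 bases before to 50 bases after the RefSeq start on GRCm38.p6, which is also the gene start of the deposited tables. Of the 10 factors, 6 had an entry in the RefSeq promoter table used here. Capitals mark matches on either strand to the letters GATAA (bound by GATA factors), AGGTGT (a T-box core), CANNTG (the E-box of helix-loop-helix factors), the MEF2 site or the CArG box of serum response factor, and no base lay in more than 1 match.
Hand2, chr8:57320733-57321032, plus strand: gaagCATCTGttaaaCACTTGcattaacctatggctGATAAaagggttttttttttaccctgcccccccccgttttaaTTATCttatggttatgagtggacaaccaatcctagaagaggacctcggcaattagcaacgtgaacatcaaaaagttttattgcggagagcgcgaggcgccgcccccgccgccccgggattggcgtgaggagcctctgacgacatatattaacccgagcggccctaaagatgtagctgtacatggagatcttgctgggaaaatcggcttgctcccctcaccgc
Tbx20, chr9:24774254-24774553, minus strand: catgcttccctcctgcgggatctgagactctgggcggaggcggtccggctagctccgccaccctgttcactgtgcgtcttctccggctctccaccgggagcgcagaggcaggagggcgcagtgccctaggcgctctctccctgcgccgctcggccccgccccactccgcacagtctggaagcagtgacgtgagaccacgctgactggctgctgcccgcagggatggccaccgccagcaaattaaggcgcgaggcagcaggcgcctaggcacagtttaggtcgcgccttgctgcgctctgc
Nkx2-5, chr17:26841516-26841815, minus strand: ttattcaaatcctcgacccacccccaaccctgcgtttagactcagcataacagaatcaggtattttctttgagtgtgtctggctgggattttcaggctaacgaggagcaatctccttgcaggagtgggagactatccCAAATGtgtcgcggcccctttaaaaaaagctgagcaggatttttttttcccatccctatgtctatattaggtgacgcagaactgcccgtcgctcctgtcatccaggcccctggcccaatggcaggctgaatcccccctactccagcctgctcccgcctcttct

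The Hand2 window held 2 GATAA matches, at -214 and -172, and 2 E-box matches. The Tbx20 window held none of the motifs, and its G and C content was 68.3%. The Nkx2-5 window held 1 E-box match, at -113. Among all 32851 RefSeq promoters of the same length, 25.4% held GATAA, 13.7% AGGTGT, 72.3% CANNTG, 3.19% the MEF2 site and 1.63% the CArG box. Among the MEF2 genes outside the cocktails, Mef2a held 1 MEF2 site, at -2, and Mef2d none of the motifs. These matches describe the letters and are not binding sites.

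Gata6 (ENSMUSG00000005836, chromosome 18 from 11052508 to 11085635), the GATA factor closest to Gata4 in cardiac function, had 324 counts in MICFs, against 133 for GMTMS and 617 for the library labelled GMTMM. Its FPKM were 4.03, 2.56 and 9.45. The transduced libraries therefore lay on opposite sides of MICFs. The ratio to MICFs was 0.636 (0.516 to 0.781) for GMTMS-iCMs and 2.35 (2.05 to 2.69) for the library labelled GMTMM, with differences of -0.37 and 1.05. The second difference was 0.80 by library totals, under the limit of 1. Gata6 was 3.69-fold lower in GMTMS-iCMs than in the library labelled GMTMM (3.05 to 4.48).

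Mef2a (ENSMUSG00000030557, chromosome 7 from 67231163 to 67372858), the main MEF2 factor of adult heart, had 2430 counts in MICFs, against 2342 for GMTMS and 2022 for the library labelled GMTMM. Its FPKM were 11.5, 17.2 and 11.8. Mef2d (ENSMUSG00000001419, chromosome 3 from 88142372 to 88172086), which is widely expressed and takes part in stress signalling in the heart, had 1524, 1473 and 1734 counts. Its FPKM were 17.7, 26.5 and 24.8. Both partners of Mef2c were present in MICFs without virus, and no difference between libraries was over 1. The ratio of GMTMS-iCMs to MICFs was 1.49 (1.41 to 1.58) for Mef2a and 1.50 (1.39 to 1.61) for Mef2d by FPKM, and 1.08 for each by library totals. For the library labelled GMTMM against MICFs the ratio of Mef2a was 1.03 (0.966 to 1.09) by FPKM and 0.829 by library totals, so no direction can be given.

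The families were then taken as sums of FPKM. In the GATA family (Gata1 to Gata6), the sum was 22.0 FPKM in MICFs, against 36.0 for GMTMS and 55.3 for the library labelled GMTMM. Gata4 made up 72.0%, 92.6% and 80.9% of it, and Gata6 18.3%, 7.13% and 17.1%. GMTMS-iCMs thus held almost only Gata4 among GATA factors. Gata2, the endothelial and blood GATA factor, was at 159 counts in MICFs, against 3 for GMTMS and 50 for the library labelled GMTMM. The difference of Gata2 from MICFs was -1.45 for GMTMS and -0.72 for the library labelled GMTMM.

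In the T-box family the sum over 8 genes was 37.2, 31.5 and 55.5 FPKM. Tbx20 made up 78.0% of it in MICFs, against 27.9% for GMTMS and 54.7% for the library labelled GMTMM, and Tbx5 0.040%, 58.7% and 22.1%. By FPKM, Tbx5 led the T-box genes in GMTMS-iCMs, at 2.11 times Tbx20 (1.92 to 2.32), against 0.404 times in the library labelled GMTMM (0.372 to 0.439). By counts, which do not correct for length, Tbx20 made up 50.3% and Tbx5 41.3% in GMTMS-iCMs. Per kilobase of coding length, which raises Tbx20 by its long untranslated exons, Tbx20 was at 79.0 and Tbx5 at 55.7 FPKM. That scale is no measure of the transcript level of Tbx20, which was in neither cocktail. The other T-box genes with a mean of at least 10 counts were Tbx2, Tbx3 and Tbx18. Tbx18, an epicardial and sinus node factor, had 251, 50 and 213 counts and was lower by over 1 in GMTMS-iCMs (-1.03). Tbx3, a transcriptional repressor active in the conduction system, had 45, 25 and 293 counts. It was 8.02-fold above MICFs in the library labelled GMTMM (5.85 to 11.2), a difference of 1.68. Tbx2, a transcriptional repressor active in the atrioventricular canal, had 191, 85 and 216 counts, with differences of -0.28 and 0.39.

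In the MEF2 family the sum was 33.9, 52.6 and 42.5 FPKM. Mef2d made up 52.2%, 50.4% and 58.4%, Mef2a 34.0%, 32.6% and 27.8%, and Mef2c 13.2%, 16.9% and 13.7%. The delivered Mef2c thus remained the smallest of these 3 by FPKM in every library. By counts, which do not correct for length, its shares were 20.4%, 25.3% and 22.2%. The order of Mef2d over Mef2a turned in every library by counts and per kilobase of coding length. The latter raises Mef2a by its long untranslated exons. It is no measure of transcript level for Mef2a and Mef2d, which were in neither cocktail. By counts Mef2a made up 48.9%, 45.8% and 41.9% and Mef2d 30.7%, 28.8% and 35.9%, and per kilobase of coding length Mef2a was at 113, 169 and 116 FPKM and Mef2d at 68.7, 103 and 96.3 FPKM.

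In the myocardin family, Mkl1 and Mkl2 are the broadly expressed coactivators of serum response factor. Their counts were 721, 902 and 626 for Mkl1 and 655, 810 and 835 for Mkl2. Myocd made up 0.649% of the family sum of 13.3 FPKM in MICFs, against 27.3% of 35.2 FPKM for GMTMS and 21.4% of 21.3 FPKM for the library labelled GMTMM. Neither Mkl1 (0.77 and 0.01) nor Mkl2 (0.82 and 0.54) differed from MICFs by over 1.

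**Figure D3:**
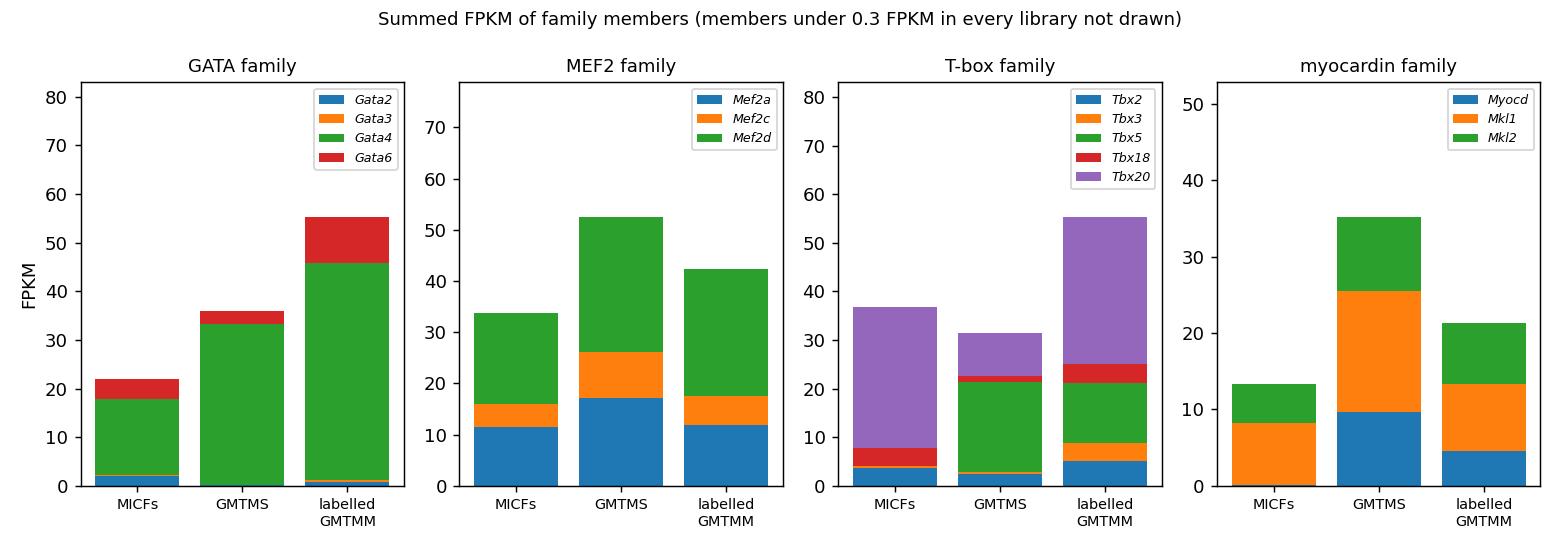
Summed FPKM of 4 transcription factor families in the 3 libraries, stacked by gene, 1 library per bar and no error bars. Tbx20 takes most of the T-box bar in MICFs and in the library labelled GMTMM, and Tbx5 most of it in GMTMS-iCMs.

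Genes that work with these factors were counted from lists. Of 16 family paralogs, 6 had a mean of at least 10 counts. In GMTMS-iCMs against MICFs none of the 6 was higher and 2 were lower by over 1 (Gata2 and Tbx18), against 9.25% and 9.19% of all genes. In the library labelled GMTMM 1 was higher (Tbx3) and none was lower, against 6.67% and 3.57% of all genes. By the ratio of FPKM, Gata2 was 2.58-fold below MICFs in that library (1.87 to 3.62). Of 11 cofactors, all with a mean of at least 10 counts, 1 was lower by over 1 in GMTMS-iCMs and none was higher. Among all genes 9.19% were lower and 9.25% higher. The cofactor that was lower was Hdac7, a class IIa histone deacetylase that represses MEF2 targets and is prominent in endothelium, with 1061, 154 and 692 counts. Its difference in GMTMS-iCMs was -1.78. By the ratio of FPKM, Zfpm2 was also 5.48-fold lower than in MICFs (3.72 to 8.35) and Tead1 2.05-fold lower (1.84 to 2.28). Their differences were -0.98 and -0.82, within the limit of 1. The highest cofactor ratio was 1.84, for Hdac5. In the library labelled GMTMM no cofactor passed 1, beside 6.67% of all genes higher and 3.57% lower. By that ratio, Hopx was 2.53-fold (1.45 to 4.55) and Hdac5 2.01-fold (1.86 to 2.17) above MICFs there. The lowest cofactor ratio there was 0.587, for Ep300. Serum response factor (Srf), the partner of Myocd, had 743, 391 and 626 counts and 17.8, 14.6 and 18.5 FPKM.

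Of 12 other heart development factors, 7 had a mean of at least 10 counts. In GMTMS-iCMs 1 was higher (Foxp1) and 2 were lower (Nr2f2 and Hey1), against 9.25% and 9.19% of all genes. In the library labelled GMTMM 2 were higher (Foxp1 and Hey1) and none was lower, against 6.67% and 3.57%. Foxp1, a forkhead repressor, had 766, 2225 and 1570 counts, with differences of 1.89 and 1.14. Hey1, a Notch target, had 444, 75 and 1040 counts, with differences of -1.56 and 1.27. Nr2f2, a nuclear receptor of venous and atrial cells, had 840, 25 and 354 counts, with differences of -2.56 and -0.85. Isl1 and Irx4, which mark the second heart field and the ventricle, had 0 counts in all 3 libraries.

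Genes known as targets of the factors were counted beside them. Compared with MICFs, 9 of 10 cardiac targets were higher by over 1 in GMTMS-iCMs, 8 were so in the library labelled GMTMM, and 1 was lower in both, against 9.25% and 6.67% of all genes higher. In MICFs 7 of the 10 targets had at most 3 counts. These 7 passed the minimum count through the transduced libraries and had to differ, so their count is a description. The 4 targets with the largest differences were Myl7, Actc1, Myh6 and Tnnt2, genes of the contractile apparatus. The gene that was lower was Gja5, a connexin of atrial, conduction and endothelial cells, with 567, 1 and 31 counts. Of 6 smooth muscle markers, which serum response factor and Myocd also drive, Myh11 and Cnn1 were higher by over 1 in both transduced libraries and Smtn was lower in GMTMS-iCMs. The shares of all genes are those given for the cardiac targets. Myh11 had 1867, 4947 and 4530 counts. All 4 skeletal muscle markers were at 0 counts in each library. The Myh6 sort chose cells by 1 of these targets.

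Markers of other cell types were examined beside the members. The 6 fibroblast markers were all below their MICF level by over 1 in GMTMS-iCMs, against 9.19% of all genes. Their summed FPKM was 1192 for MICFs, 168 for GMTMS and 2181 for the library labelled GMTMM. The 5 endothelial markers were all lower by over 1 in GMTMS-iCMs too, with sums of 353, 9.40 and 269 FPKM. The 5 macrophage markers had sums of 8245, 15802 and 7528 FPKM, so macrophage transcripts were abundant in every library although the labels name cardiac fibroblasts and induced cardiomyocytes. On the scale of differences none of the 5 passed 1 between GMTMS-iCMs and MICFs (0.00 to 0.63), although all 5 were higher by FPKM. Among all genes 9.25% were higher by over 1 there. The 0.00 is Lyz2, which quantile normalization set to the same value in both libraries, while its FPKM were 6135 in MICFs and 11353 for GMTMS. In GMTMS-iCMs 3 of the 5 macrophage markers exceeded their level in the library labelled GMTMM by over 1, against 6.22% of all genes. No defining marker of these 3 lists was at 0 counts in any library. The falls of Tbx20, Hand2, Gata2, Tbx18 and Hdac7 in GMTMS-iCMs went with the falls of the fibroblast and endothelial lists, and the part of these cells in them was not tested. Of the 3 epicardial markers, Wt1 had 8, 6 and 128 counts, and it went with Tbx3 in the library labelled GMTMM. B cell markers had at most 8 counts.

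**Figure D4:**
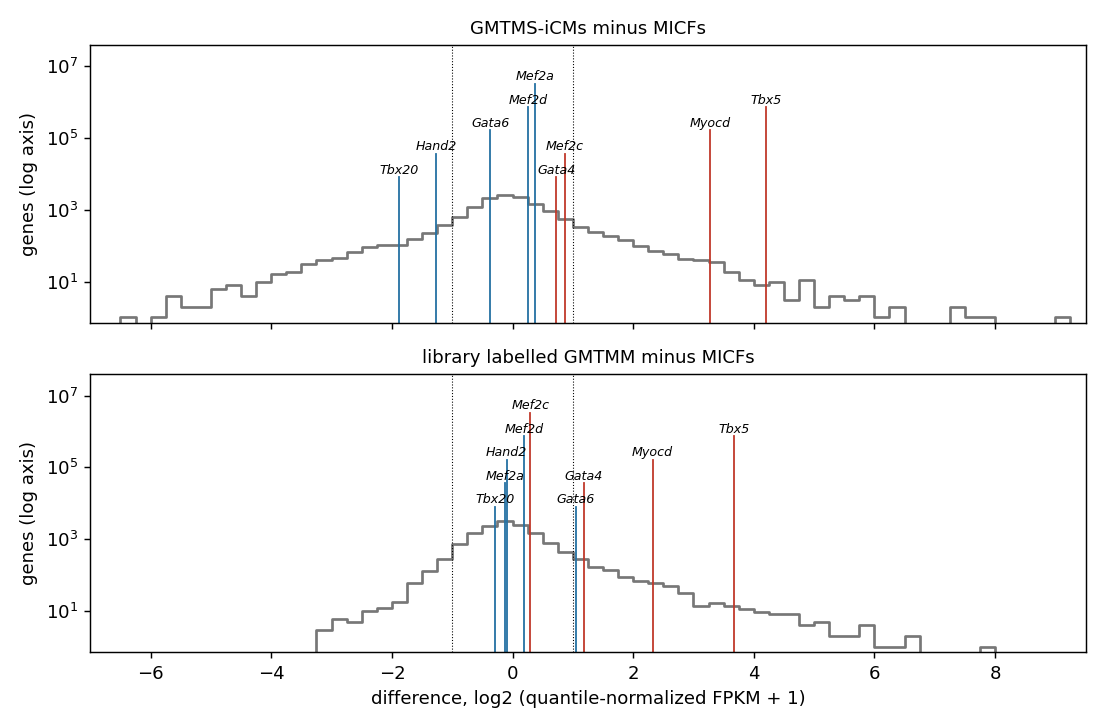
Differences in log2 (quantile-normalized FPKM + 1) from MICFs, in bins of 0.25, for all 14415 genes with a mean of at least 10 counts (grey steps, log axis), with 9 factors marked (red, delivered; blue, in neither cocktail) at heights chosen for legibility. Dotted lines mark differences of -1 and 1. Tbx5 and Myocd lie in the upper tail in both panels, and Tbx20 and Hand2 lie left of -1 in GMTMS-iCMs only.

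Genes with a pattern like that of a delivered factor were named by the smallest value of the largest absolute difference over the 3 libraries. For Tbx5 they were Sall4 (0.37), Sh3bgr (0.42) and the Y-linked Ddx3y (0.46). For Myocd they were Arg2 (0.14), Fam71f2 (0.30) and Tcap (0.31), and for Gata4 Tifa (0.16), Bcl10 (0.29) and Dnaja1 (0.29). With 3 libraries such likeness is a description.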

How the data were processed

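RNA-seq tables of 3 mouse libraries, 1 per condition, were used as deposited. The authors deposited raw counts per gene and FPKM per gene. The submitters' processing notes name HISAT2 2.0.5 and the build mm9, whereas identifiers and coordinates in the tables are those of GRCm38. Counting tool, strand setting and treatment of reads with several matches are not given in the sources used here. The authors' FPKM rest on library sizes of 14389264 (MICFs), 9287868 (GMTMS) and 11680913 (labelled GMTMM), against totals of 11861773, 10624118 and 11904484 counts. These sizes stand in the same proportions as the DESeq2 size factors of 1.257, 0.811 and 1.020. The deposited FPKM thus already carry that scaling. The column cMF was taken as MICFs, since the other columns carry the names of the cocktails.

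FPKM was quantile-normalized over the 3 libraries and transformed as log2 (FPKM + 1), as in the paper's methods. A difference over 1 was called among genes with a mean of at least 10 counts. No test was run. The members and lists were chosen with earlier results of these data known. Beside the members, the text names family paralogs with a mean of at least 10 counts, at most 4 genes of each other list by the size of their difference from MICFs, and the 3 genes nearest to each of Tbx5, Myocd and Gata4. Srf, Gja5, Zfpm2, Tead1, Hdac5, Hdac9, Hopx, Ep300, Meis2, Prox1, Hey2, Isl1, Irx4, Nkx2-3 and Nkx2-6 were named after their values were seen. Alternatives were the reverse order of log2 and quantile normalization, FPKM without the latter, a pseudocount of 0.1, other filters, TMM, DESeq2 size factors, thinned counts, a limit of 2 and a ratio of FPKM over 2. Steps were tested on simulated data. Analyses ran in R 4.3.3 with edgeR 4.0.16 and DESeq2 1.42.0, and in Python 3.11.15 with pandas 2.3.3, numpy 2.4.6, SciPy 1.17.1 and matplotlib 3.10.9. Coding lengths and shared sequence came from GENCODE M21. Among 50-base words of the members' transcripts, at most 0.385% occurred in another gene.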

Additional observations from a re-analysis of the deposited data

Results flagged for a closer look

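Among 33 tested genes of the members, family paralogs, cofactors and other heart development factors, 8 had ratios of FPKM to MICFs on opposite sides of 1 in the transduced libraries, with counting intervals that did not include 1. The share of all tested genes that met this rule was not computed, so the count has nothing to be set against. The target and marker lists were not screened in this way, and the differences were not tested. Gata6 was at 0.636 for GMTMS and 2.35 for the library labelled GMTMM. Tbx20 was at 0.303 and 1.05, and the second value fell below 1 by library totals (0.846). Tbx2 was at 0.689 and 1.39, and by library totals the interval of its second value included 1 (1.13, 0.923 to 1.38). Hey1 was at 0.262 and 2.89. Of the cofactors, Zfpm2 was at 0.183 and 1.73 and Tead1 at 0.488 and 1.42. Hdac9, a histone deacetylase that represses MEF2 targets, went the other way, at 1.74 and 0.724. The acetyltransferase Ep300 was at 1.13 and 0.587, and its first value fell below 1 by library totals (0.815).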

How the results depend on the processing

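No paired analysis was possible because there was a single library for each condition. No alternative reversed a called difference. DESeq2 size factors scale the libraries as the deposited FPKM do. Results under them and under FPKM without quantile normalization are thus not separate checks. The median difference of the factors between GMTMS-iCMs and MICFs (0.37) was 0.56 without quantile normalization, 0.50 with TMM, 0.58 with DESeq2 size factors and 0.11 with library totals. Under the same settings the median for the library labelled GMTMM and MICFs (0.30) came to 0.46, 0.46, 0.49 and 0.17. Between the transduced libraries (0.06) it was -0.0683 with library totals. With library totals the median of all genes moved from -0.07 to -0.35, from -0.08 to -0.21 and from 0.06 to -0.10 in these comparisons, in the same order. A limit of 2 left 0 factors lower in GMTMS-iCMs than in MICFs, 2 above MICFs in the library labelled GMTMM, and 0 lower in GMTMS-iCMs than in the library labelled GMTMM. The 2 were Tbx5 and Myocd, which had to differ. The share of all genes past a limit of 2 was not computed, so these counts have nothing to be set against. Myocd was the 1 factor higher in GMTMS-iCMs than in the library labelled GMTMM with a pseudocount of 0.1, with TMM, with DESeq2 size factors and by the ratio of FPKM over 2. Gata4 in GMTMS-iCMs against MICFs ranged from 0.58 to 1.07 and passed 1 in 2 alternatives. These were FPKM without quantile normalization (1.03) and DESeq2 size factors (1.07), which share the same scaling. Gata6 in the library labelled GMTMM ranged from 0.80 to 1.23. Mef2a (-0.12, up to 0.04) and Tbx20 (-0.29, up to 0.07) changed sign in that library in 3 alternatives each, TMM and the 2 that share a scaling. Mef2d changed sign between the transduced libraries in 1 (-0.07). Scaling by library totals and by coding length was chosen after seeing the data. Apart from what the scalings themselves change, the cause of these shifts was not tested. At this depth 25 counts of Hand2 and 8 of Myocd bound how precisely their ratios can be known.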

Other observations

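Of 11 cofactors of the factors, 3 were lower by over 1 in GMTMS-iCMs than in the library labelled GMTMM and none was higher. Among all genes, 9.63% were lower and 6.22% higher in this comparison. Zfpm2, the FOG protein that binds Gata4 in the heart, had 246 counts in MICFs, against 29 for GMTMS and 345 for the library labelled GMTMM. Its FPKM were 1.79, 0.327 and 3.10, and the difference between the transduced libraries was -1.56. Tead1, a factor of MCAT elements in muscle genes, had 1463, 461 and 1687 counts, with a difference of -1.20. Hdac7 was the other, with a difference of -1.38. These genes were lower in the same library as Tbx20, Hand2 and Gata6, in which all 6 fibroblast and 4 of 5 endothelial markers were also lower by over 1 and 3 of 5 macrophage markers were higher, and the part of these cells was not tested. Of 6 family paralogs, Tbx3 (-1.68) and Tbx18 (-1.09) were lower in the same comparison.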
